A study of Mus musculus with 31 samples.

Results

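The 78 genes described here encode mitochondrial ribosomal proteins: every gene of both deposited count tables whose mouse symbol is Mrpl or Mrps followed by a number and at most 1 further letter. They were chosen by name and not by any measured value, out of 20704 genes listed for ribosome-protected fragments (RPFs) and 24593 listed for total RNA. Of the 78, 51 belong to the large subunit of the mitochondrial ribosome and 26 to the small subunit, counting Mrps30 and Mrps18a with the large subunit, where their proteins sit. The remaining gene, Mrps36, carries a ribosomal name but encodes a component of the oxoglutarate dehydrogenase complex.

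The mitochondrial ribosome is built from RNAs made in the organelle and from proteins that are all encoded in the nucleus, translated on cytosolic ribosomes and imported. It makes only the few membrane subunits of the respiratory chain and of ATP synthase that mitochondrial DNA encodes. Its output therefore depends on nuclear mRNAs being read by the cytosolic machinery, which the integrated stress response (ISR) throttles through phosphorylation of the initiation factor eIF2α. The mRNAs of cytosolic ribosomal proteins carry a pyrimidine tract at their start (a TOP motif) through which their translation is turned down under stress.

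RPFs and total RNA were sequenced from a mouse skin squamous cell carcinoma (SCC) line that carries Hras G12V and lacks TgfbrII. In both lines compared the endogenous gene for eIF2α, Eif2s1, had been ablated and replaced by a myc-tagged cDNA driven from a lentiviral PGK promoter, either wild type (S51, ISR-competent) or with the phosphorylated serine changed to alanine (S51A, ISR-null). Cells received DMSO (vehicle) or the proteasome inhibitor bortezomib at 100 nM for 4.5 h by the sample labels. There were 3 RPF libraries of S51 vehicle and 4 of each other group, and 4 total RNA libraries of each group. More than 1 clone of each genotype was made and the sources used here do not say which clone gave which library, so a difference between the lines cannot be told apart from a difference between clones. The sources call the replicates technical in one place and independent in another, and p-values measure only the spread between these libraries.

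The RPF libraries held 1038826 to 4902237 counts and those of total RNA 18758668 to 22994713, and a member had between 22 and 824 counts in an RPF library and between 70 and 3592 in a total RNA library. All 78 members passed the filter on low counts in both assays. All 8 keratinocyte markers checked were detected, with summed levels of 11579 to 16979 CPM (reads of a gene relative to the TMM-scaled library total) in total RNA, against at most 6.93 for the 7 fibroblast markers and 7.31 for the 5 leukocyte markers. Eif2s1 was read in every group, at 287 to 310 CPM in total RNA by group mean, and gene counts do not distinguish its alleles. Its RPFs were 138 ± 49.2 CPM (mean ± SD) in S51 vehicle and 169 ± 19.6 in S51 bortezomib. In S51A they were 230 ± 22.4 in vehicle and 208 ± 21.1 in bortezomib. Replicate 2 of S51 vehicle stood apart among the RPF libraries. Its median absolute deviation from the other libraries of its group was 0.39 on the log2 scale, where the other 14 RPF libraries deviated by 0.10 to 0.25. Several of the results that rest on it are given with and without it, and the others only with it.

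In total RNA the members together took 0.473% ± 0.0057 (SD, n = 4) of all gene counts in vehicle-treated S51 and 0.391% ± 0.0071 after bortezomib. S51A libraries gave 0.421% ± 0.0046 before and 0.398% ± 0.0061 after bortezomib. In RPF the share went from 0.592% ± 0.034 (n = 3) to 0.524% ± 0.019 (n = 4) in S51, and from 0.494% ± 0.0046 to 0.479% ± 0.0078 in S51A. The 4 total RNA libraries of S51 vehicle lay between 0.466% and 0.479%, above every other total RNA library. These shares are of raw counts, and fewer mRNAs of the members cannot be told apart from more of all others. When libraries were scaled by their totals alone instead of by trimmed mean of M values (TMM), the median of all 11708 genes in total RNA moved to -0.16 (log2) for bortezomib in S51 and to -0.13 in S51A, and that of translational efficiency (TE, RPF relative to total RNA) to 0.15 in S51. All fold changes below are on the TMM scale, relative to that shift.

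The tract that marks cytosolic ribosomal protein mRNAs lies at the mRNA's start. The first bases are shown for the members whose TE passed the test in S51. Beside them are the 4 cytosolic ribosomal proteins with the lowest TE there among those considered. These were the ones with an entry in the RefSeq promoter table, except genes of a chromosome kept out of the printed sequences. Each run is 30 bases of RefSeq sequence (GRCm38.p6), 15 before and 15 from the annotated start, with the first 5 bases of the transcript in capitals.
Mrpl3 (chr9:105053253-105053282, plus strand): aagtggcccggctgtGCTTTtcctccgcgg
Mrps21 (chr3:95871500-95871529, minus strand): gcttcctcccgtcgcGGGACtccgtagctt
Mrps24 (chr11:5707687-5707716, minus strand): gccccgccttcctgcGGCTGcgcactgacg
Mrps26 (chr2:130563742-130563771, plus strand): acttccgggccgggcGCAGGcgcaggcgct
Rps27 (chr3:90213634-90213663, minus strand): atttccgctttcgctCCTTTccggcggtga
Rps19 (chr7:24884577-24884606, plus strand): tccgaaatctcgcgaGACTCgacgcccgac
Rps19 (chr7:24884661-24884690, plus strand): ccgcacggtgagtgaGGGCTctgggtcgcg
Rps19 (chr7:24884898-24884927, plus strand): gagggagcggggtgtGGAGGgctctcccac
Rps18 (chr17:33955651-33955680, minus strand): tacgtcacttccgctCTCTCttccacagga
Rpl27a (chr7:109519180-109519209, plus strand): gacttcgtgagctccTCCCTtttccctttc
Rps27 and Rps18 start with a pyrimidine tract headed by a C, and Rpl27a with one headed by a T. The 3 annotated starts of Rps19 all begin with a G. Mrpl3 also begins with a G, which a run of pyrimidines follows. The promoter table held 75 starts for 69 of the members. None of these 75 began with a C followed by 4 bases that are each C or T, against 14 of 76 starts (18.4%) of cytosolic ribosomal proteins and 823 of 32851 starts in all (2.51%). This count was made after the fold changes were known, and it reads only the annotated starts. The rule found the tract in few cytosolic ribosomal proteins too, so its lack among the members does not show that they have none. Whether the start sequence bears on TE was not tested. The 9 members with no entry were Mrpl13, Mrpl15, Mrpl19, Mrpl38, Mrpl4, Mrpl54, Mrps28, Mrps34 and Mrps35.

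Mitochondrial ribosomal proteins passed the test in TE with bortezomib at shares close to those of all genes, while nearly all cytosolic ribosomal proteins fell. In TE, 1 member rose and 3 fell of 78 in S51, with a median log2 fold change of -0.03. With library totals alone 8 rose and 1 fell, and the median turned to 0.12. DESeq2 called 2 higher and 8 lower, and without S51 vehicle replicate 2 of RPF there were 1 higher and 2 lower. Leaving out S51 vehicle replicate 3 of RPF gave 2 higher and 10 lower, and leaving out S51 bortezomib replicate 3 of RPF gave 1 higher and none lower. Of the cytosolic ribosomal proteins, 76 of 78 fell in TE in S51, with a median of -1.18, and 73 of 78 fell in S51A, with a median of -0.77. Over all 9424 genes tested for TE in S51, 1.43% were called higher and 5.70% lower (edgeR quasi-likelihood test, adjusted p below 0.05 by Benjamini-Hochberg, here and throughout), with a median of 0.00. Among respiratory chain subunits there were 1 of 73 higher and 5 lower, with a median of -0.02. In S51A no member passed in TE, against 0.0743% of all genes higher and 1.10% lower. There the edgeR test gave 1 member at an unadjusted p below 0.05 and DESeq2 called 1, and the members' median was -0.06.

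**Figure D1:**
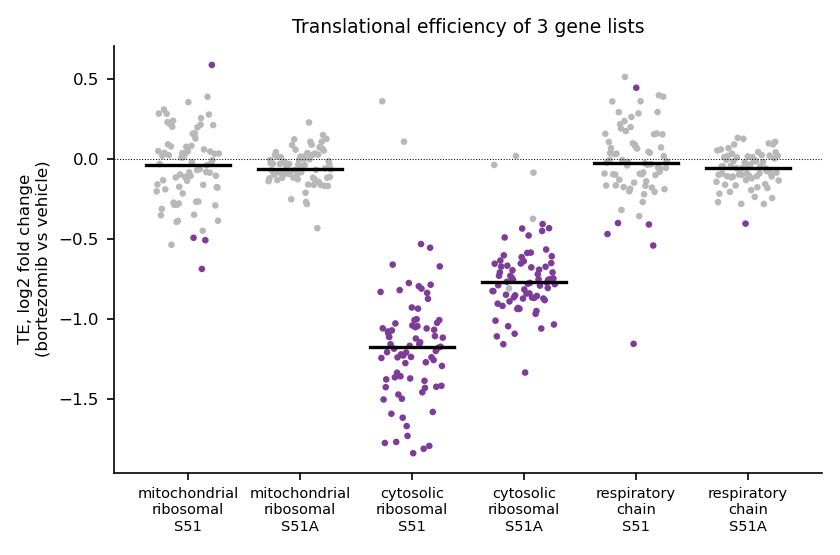
Log2 fold change of translational efficiency with bortezomib for 78 mitochondrial ribosomal, 78 cytosolic ribosomal and 73 respiratory chain genes in S51 and S51A; each point is a gene, purple points passed an adjusted p of 0.05, and bars are medians. The cytosolic ribosomal proteins centre on -1.18 in S51 and -0.77 in S51A, and the mitochondrial ones on -0.03 and -0.06.

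Mrpl3, a large subunit protein with a bacterial counterpart, was the member whose TE rose in S51. Its RPFs were 71.8, 50.2 and 73.5 CPM in the S51 vehicle libraries and 95.9, 93.5, 94.8 and 87.8 CPM in S51 bortezomib, so that all bortezomib libraries lay above all vehicle ones. Its total RNA was 47.5, 52.9, 52.8 and 56.7 CPM in vehicle and 49.8, 49.4, 48.8 and 48.8 CPM in bortezomib, within the vehicle range. Its TE rose by 0.59 ± 0.13 (log2 fold change ± SE, adjusted p = 0.00323), and by 0.45 without S51 vehicle replicate 2 (adjusted p = 0.00796). In S51A its RPFs were 71.3, 53.5, 63.8 and 62.3 CPM in vehicle and 60.8, 55.9, 62.3 and 66.8 CPM in bortezomib, which overlap. The TE change there was 0.05 ± 0.13, and the difference of the responses between the lines, 0.54 ± 0.18, did not pass (adjusted p = 0.216).

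The 3 members whose TE fell in S51 are all small subunit proteins. Mrps21, which has a bacterial counterpart, had RPFs of 49.1, 70.4 and 49.4 CPM in S51 vehicle and 37.0, 31.5, 28.3 and 28.5 CPM in S51 bortezomib. Its total RNA was 46.1, 48.5, 50.8 and 48.0 CPM in S51 vehicle and 46.0, 45.6, 40.6 and 41.2 CPM in S51 bortezomib. The RPF libraries separated by treatment more widely than those of total RNA, and TE fell by 0.69 ± 0.18 (adjusted p = 0.0109). Mrps24, also conserved with bacteria, went from 72.8, 105 and 66.6 CPM of RPF in S51 vehicle to 47.2, 43.0, 51 and 52.0 CPM in S51 bortezomib, with TE lower by 0.51 ± 0.15 (log2 fold change -0.51, adjusted p = 0.0253). Mrps26, a protein specific to the mitochondrial ribosome, went from 67.9, 98.4 and 67.6 CPM of RPF to 40.0, 34.4, 35.5 and 40.8 CPM, with a TE log2 fold change of -0.49 ± 0.15 (adjusted p = 0.0300). In each of these members S51 vehicle replicate 2 was the highest library. Without it, TE of Mrps21 still passed at -0.52 (adjusted p = 0.0482), while Mrps24 at -0.29 (adjusted p = 0.176) and Mrps26 at -0.31 (adjusted p = 0.154) did not. Leaving out S51 bortezomib replicate 3 of RPF also ended all 3 calls, with Mrps21 at -0.63, Mrps24 at -0.54 and Mrps26 at -0.45, replicate 2 ended those of Mrps24 (-0.46) and Mrps26 (-0.46), and replicate 1 that of Mrps24 (-0.49). With library totals alone Mrps24 and Mrps26 did not pass either, at -0.35 and -0.34.

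**Figure D2:**
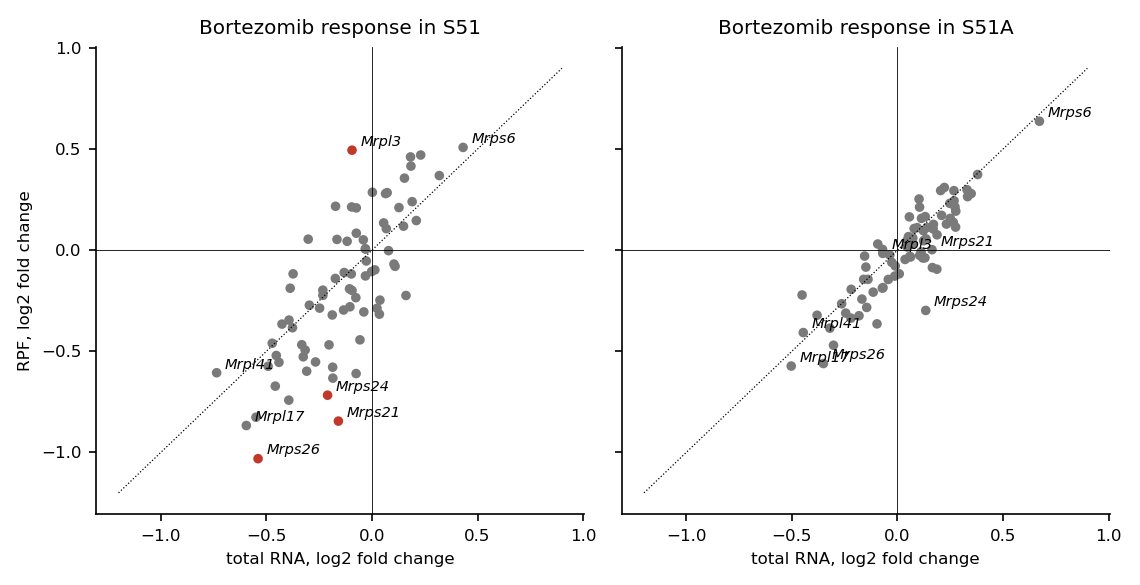
Log2 fold change with bortezomib in total RNA (horizontal) and in RPF (vertical) for the 78 members, in S51 on the left and S51A on the right; the dotted line marks equal change and red points passed in TE. The points lie along the line in both, with Pearson r over the 78 members of 0.76 in S51 and 0.89 in S51A (members share the same libraries), and the 4 red points, Mrpl3 above and Mrps21, Mrps24 and Mrps26 below, stand off it in S51.

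In RPF, 23 members fell and 5 rose with bortezomib in S51, against 16.0% of all 9457 genes lower and 14.8% higher. The members' median was -0.19, with a range of -1.03 to 0.51, and the median of all genes was 0.00. By subunit, 13 of 51 large and 10 of 26 small subunit members fell. Of the 44 members in a list of those conserved with bacteria 14 fell and 3 rose, and of the 34 not listed, 9 fell and 2 rose. The list holds Mrps18c but not its paralogs Mrps18a and Mrps18b, so it may leave out members with a bacterial counterpart. Without S51 vehicle replicate 2 there were 23 lower and 3 higher, with a median of -0.15, and 21 of the 28 calls were kept. Of the 23 members lower in RPF, 21 were also lower in total RNA (21 of the 37 lower there).

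The members lowest in RPF of S51 were Mrps26, Mrpl17 and Mrps21. Mrpl17, a large subunit protein with a bacterial counterpart, had 180, 247 and 171 CPM of RPF in S51 vehicle and 115, 114, 102 and 106 CPM in S51 bortezomib. Its total RNA was 113, 113, 114 and 117 CPM in vehicle and 74.9, 75.1, 73.7 and 78.7 CPM in bortezomib. No library of either treatment overlapped the other in either assay, and the log2 fold changes were -0.87 ± 0.12 in RPF (adjusted p = 9.68e-06) and -0.59 ± 0.03 in total RNA (adjusted p = 3.82e-13). Mrps26 RPFs changed by -1.03 ± 0.14 (adjusted p = 1.19e-05) and Mrps21 RPFs by -0.85 ± 0.17 (adjusted p = 0.000728).

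Those highest in RPF of S51 were Mrps6, Mrpl3 and Mrps31. Mrps6, a small subunit protein with a bacterial counterpart, had 78.5, 48.7 and 67.8 CPM of RPF in S51 vehicle and 96.6, 109, 85.3 and 87.2 CPM in S51 bortezomib, all above vehicle, a rise of 0.51 ± 0.14 (adjusted p = 0.00978). Its total RNA rose from 37.3, 35.6, 35.3 and 39.5 CPM to 49.7, 52.8, 46.7 and 50.1 CPM, by 0.43 ± 0.06. In S51A its RPFs rose by 0.64 ± 0.13 and its total RNA by 0.67 ± 0.07, the highest member in all 4 of these comparisons. The exons of Mrps6 overlap on the same strand those of Slc5a3, the sodium and myo-inositol cotransporter, over 18.6% of their length. Slc5a3 itself rose by 0.82 ± 0.08 in total RNA of S51 and by 0.97 ± 0.07 in S51A, and the part of shared exons in the counts of Mrps6 was not tested. Mrps31 RPFs rose by 0.46 ± 0.14 (adjusted p = 0.0156), and by 0.32 without S51 vehicle replicate 2 (adjusted p = 0.0628).

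**Figure D3:**
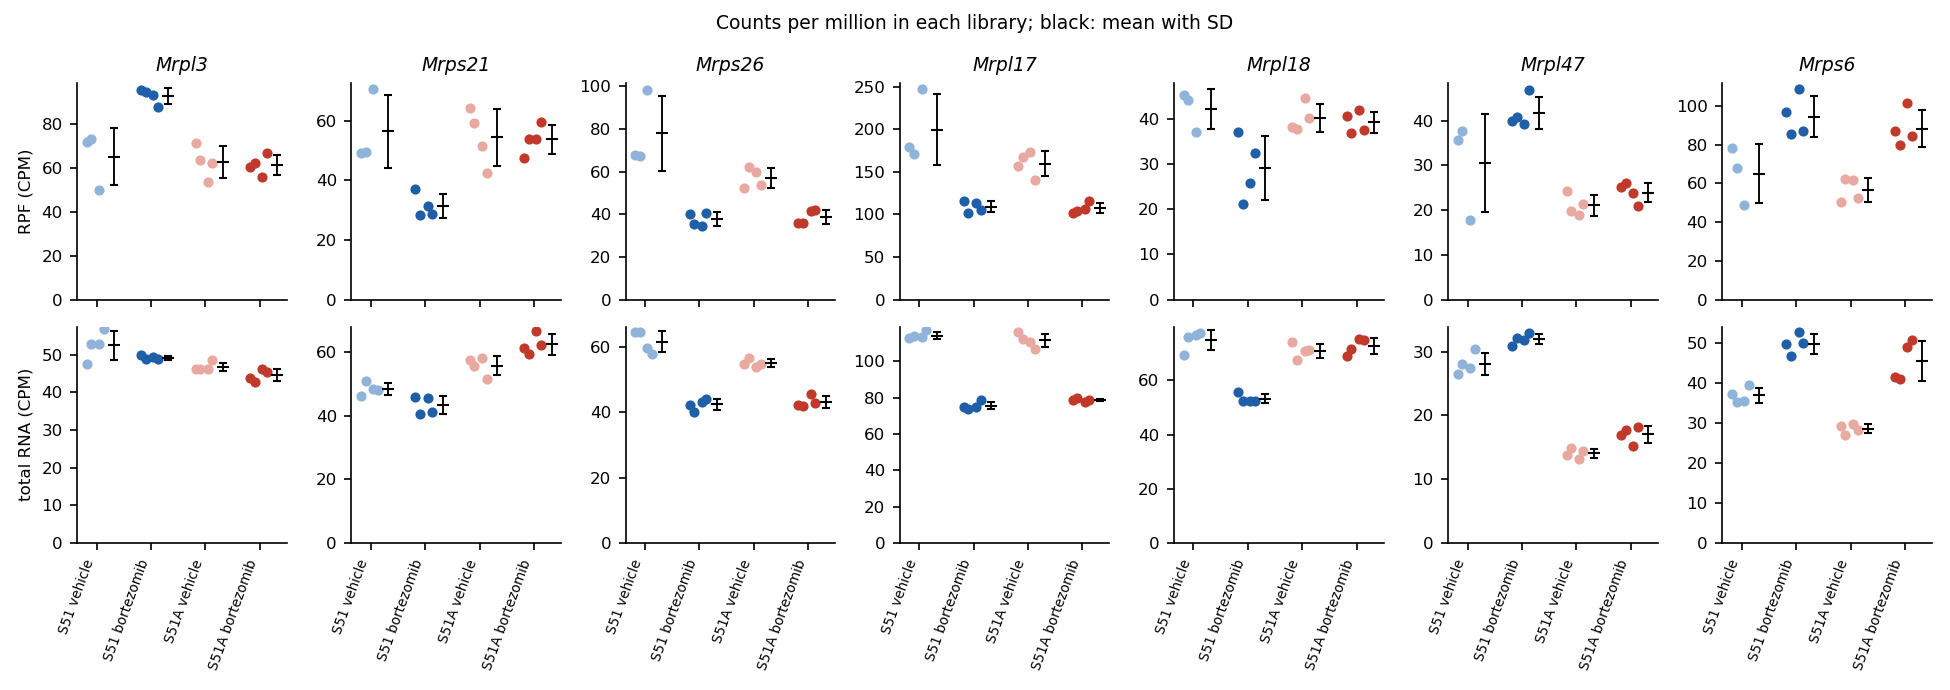
CPM in every library for 7 members, RPF above and total RNA below; coloured points are libraries by group and black bars are means with SD, with 3 S51 vehicle libraries in RPF and 4 in each other group. Mrpl3 rises and Mrps21, Mrps26 and Mrpl17 fall in RPF of S51 with bortezomib, and Mrpl47 is low in all total RNA libraries of S51A, at 13.2 to 18.2 CPM.

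In S51A, 9 members fell and 5 rose in RPF with bortezomib, against 11.4% of all genes lower and 9.25% higher, with a median of 0.00. With library totals alone 9 fell and 3 rose, and with RLE size factors 7 fell and 6 rose. S51 vehicle replicate 2 is not in this comparison but enters the fit through the shared estimate of spread, the filter and the scaling. Without it 12 fell and 8 rose, and which of these routes moved the count was not tested. Without any 1 of the 8 S51A libraries 5 to 8 members passed, the fewest without S51A vehicle replicate 2. Mrpl17 changed by -0.57 ± 0.11 (adjusted p = 0.000558), Mrps26 by -0.56 ± 0.13 (adjusted p = 0.00337) and Mrpl2, a core large subunit protein, by -0.47 ± 0.11 (adjusted p = 0.00415). Beside Mrps6, Mrpl9 rose by 0.37 ± 0.11 (adjusted p = 0.0163) and Mrpl49 by 0.30 ± 0.11 (adjusted p = 0.0496). Mrpl9 lost its call on leaving out any of 4 S51A libraries (bortezomib replicates 2 and 4, vehicle replicates 2 and 4) and Mrpl49 on leaving out any of 11 of the 15 libraries. Of the members lower in RPF, 7 were shared between the lines, 7 of 23 in S51 and 7 of 9 in S51A. All 9457 genes gave 1.04% higher and 1.31% lower for the difference of the RPF responses, and of the members only Mrps21 passed.

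Mrps21 RPFs in S51A were 64.4, 51.6, 59.2 and 42.5 CPM in vehicle and 47.6, 54.0, 54.0 and 59.5 CPM in bortezomib, overlapping throughout, where those of S51 had separated. The difference of the responses, S51 minus S51A, was -0.85 ± 0.22 (adjusted p = 0.0450). It did not pass on leaving out any of 9 of the 15 RPF libraries, where the adjusted p rose as high as 0.125, nor with library totals alone, while DESeq2 called 3 members and RLE size factors 2.

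In total RNA, 37 members fell and 11 rose with bortezomib in S51, against 30.2% of all 11708 genes lower and 29.7% higher, with a median of -0.10. In S51A, 18 fell and 30 rose, against 28.9% lower and 27.5% higher, with a median of 0.07. The split depended on scaling: with library totals alone 61 fell and 2 rose in S51, and 28 fell and 13 rose in S51A, where the median turned to -0.04. Of the 37 members lower in S51, 17 were also among the 18 lower in S51A, and 10 of the 11 higher in S51 were among the 30 higher in S51A. Most changes were small: only Mrpl17 and Mrpl41 in S51 and Mrps6 in S51A passed with a change of more than 1.5-fold.

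Mrpl41, a mitochondria-specific large subunit protein, fell most in total RNA of S51. It had 29.3, 30.8, 28.4 and 28.6 CPM in S51 vehicle and 18.2, 18.4, 16.9 and 16.8 CPM in S51 bortezomib, and 32.2, 32.2, 34.7 and 32.5 CPM in S51A vehicle and 23.1, 24.5, 24.5 and 24.6 CPM in S51A bortezomib. Bortezomib libraries lay below vehicle in both lines, by -0.74 ± 0.05 in S51 (adjusted p = 2.83e-11) and -0.45 ± 0.05 in S51A (adjusted p = 1.00e-07) on the log2 scale. Mrpl36, which has a bacterial counterpart, changed by -0.55 ± 0.05 in S51 and -0.17 ± 0.05 in S51A. Mrpl17 changed by -0.50 ± 0.03 in S51A, against -0.59 ± 0.03 in S51. Mrps34, a small subunit protein, changed by -0.45 ± 0.13 in S51A from the lowest total RNA of any member, at 5.70, 5.86, 5.16 and 5.39 CPM in vehicle and 3.87, 4.14, 4.86 and 3.37 CPM in bortezomib.

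Among those that rose, Mrpl9, a large subunit protein conserved with bacteria, had 67.3, 65.9, 67.9 and 66.6 CPM in S51 vehicle and 82.7, 85.2, 84.2 and 81.8 CPM in S51 bortezomib. Its total RNA rose by 0.32 ± 0.04 in S51 and by 0.38 ± 0.04 in S51A, and the libraries of the treatments did not overlap in S51. Mrpl1 rose by 0.23 ± 0.05 in S51, a call that did not hold with library totals alone, and Mrpl45 by 0.35 ± 0.04 in S51A.

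The total RNA responses of the lines differed in 1 direction. The difference, S51 minus S51A, was negative and past the test in 34 members and positive in none, against 9.58% of all genes lower and 12.0% higher. No member was higher at an unadjusted p below 0.05 either, nor by DESeq2, which called 34 lower. The members' median difference was -0.16, 72 of 78 were below 0, and the median of all genes was 0.00. With library totals alone 41 members were lower and the median was -0.20. In respiratory chain subunits the median difference was -0.15, with 36 of 74 lower and 2 higher, and in cytosolic ribosomal proteins it was -0.15, with 50 of 79 lower and 1 higher. Other genes of mitochondrial translation were read in smaller lists. Of 25 factors of mitoribosome assembly and ribosomal RNA modification none was lower and 2 were higher (median -0.09). None of 13 translation factors passed (median -0.01). Of 9 genes of mitochondrial transcription and mRNA handling 1 was lower and 1 higher (median -0.09). These lists are too small to tell such counts from the shares of all genes. Of the 34 members, 22 were among those that fell in S51 and 16 among those that rose in S51A.

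**Figure D4:**
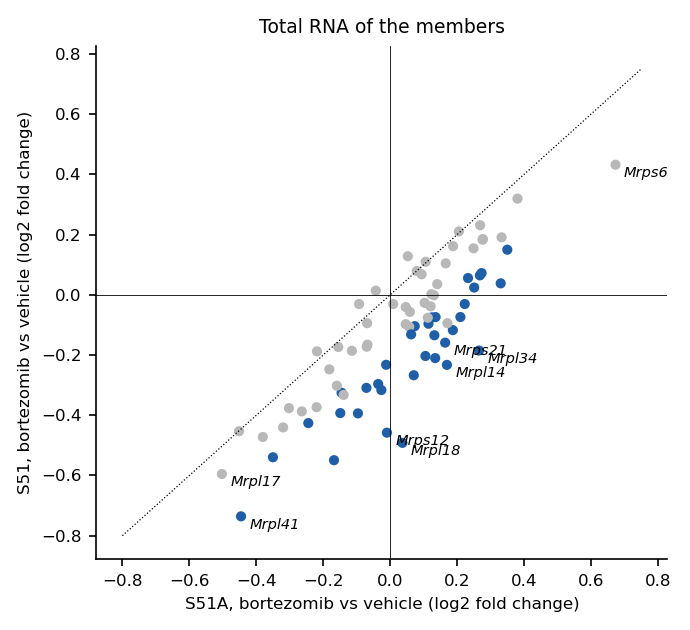
Total RNA log2 fold change with bortezomib of the 78 members in S51A (horizontal) and S51 (vertical); blue points passed the test of the difference and the dotted line marks equal responses. Nearly all points lie on or below the line, with Mrpl18 farthest from it by the tested difference of -0.53.

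Mrpl18, a large subunit protein with a bacterial counterpart, differed most. Its total RNA was 69.4, 76.7, 75.9 and 77.4 CPM in S51 vehicle and 55.8, 52.2, 52.5 and 52.6 CPM in S51 bortezomib. In S51A it was 74.0, 70.9, 67.6 and 71.0 CPM in vehicle and 69.0, 75.4, 71.5 and 74.8 CPM in bortezomib. Only S51 bortezomib stood below the other groups, and the difference of the responses was -0.53 ± 0.06 (adjusted p = 2.97e-06). RPFs of Mrpl18 followed in S51, at 45.3, 37.2 and 44.2 CPM in vehicle and 37.0, 25.8, 21.1 and 32.4 CPM in bortezomib, a change of -0.57 ± 0.16 (adjusted p = 0.00934). The RPF difference between the lines, -0.53 ± 0.21, did not pass (adjusted p = 0.208). Next were Mrpl34, a large subunit protein conserved with bacteria, at -0.45 ± 0.09 (adjusted p = 0.00136), and Mrps12 at -0.45 ± 0.08 (adjusted p = 0.000462). Mrpl14, Mrpl34, Mrps21, Mrps24 and Mrps7, named after their values were seen, fell in S51 and rose in S51A, and with library totals alone none of the 5 kept both calls.

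The S51A line had less total RNA of most members than S51 before treatment. In vehicle, 50 members were lower and 5 higher in S51A, against 32.4% of all genes lower and 31.4% higher, with a median of -0.21. In RPF 26 were lower and none higher, against 13.8% lower and 14.8% higher, with a median of -0.23. At an unadjusted p below 0.05 there was 1 member higher in RPF, and DESeq2 called none higher and 27 lower. Of the 26, 24 were also lower in total RNA. Without S51 vehicle replicate 2, 27 members were lower in RPF and 1 higher, and 19 of the 26 calls were kept. In TE no member passed between the vehicle lines, against 0.0637% of all genes higher and 0.0212% lower, where 7 members had an unadjusted p below 0.05 and DESeq2 called none.

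Mrpl47, a large subunit protein near the exit tunnel, differed most between the lines in total RNA. Its total RNA was 26.4, 27.4, 28.0 and 30.4 CPM in S51 vehicle and 13.8, 13.2, 14.8 and 14.4 CPM in S51A vehicle, and 30.9, 31.8, 32.1 and 32.9 CPM against 17.0, 15.3, 17.7 and 18.2 CPM under bortezomib. Every S51A library was below every S51 library, with log2 fold changes of -1.0 ± 0.06 in vehicle (adjusted p = 1.67e-12) and -0.91 ± 0.06 under bortezomib (adjusted p = 5.75e-12). In RPF S51 vehicle replicate 2, at 17.9 CPM, lay with the S51A libraries, at 24.2, 19.0, 19.9 and 21.3 CPM, and not with the other S51 vehicle libraries, at 35.7 and 37.8 CPM. Mrpl4, a core large subunit protein, had 115, 141 and 95.6 CPM of RPF in S51 vehicle and 61.6, 55.2, 63.4 and 54.2 CPM in S51A vehicle. No S51A library reached an S51 one, and the log2 fold change was -1.0 ± 0.13 in RPF and -0.79 ± 0.05 in total RNA. Mrps28, a small subunit protein, had 60.1, 66.1 and 59.1 CPM of RPF in S51 vehicle and 27.0, 35.2, 32.7 and 28.9 CPM in S51A vehicle. These groups were also separate, at -0.98 ± 0.12 in RPF (adjusted p = 2.70e-06) and -0.80 ± 0.07 in total RNA (adjusted p = 4.63e-10). The few higher in total RNA of S51A vehicle included Mrpl14, by 0.21 ± 0.07 (0.15 and no longer past the test, adjusted p = 0.0812, without S51 vehicle replicate 4 of total RNA), Mrps21, by 0.20 ± 0.05, and Mrps2, by 0.18 ± 0.05.

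Under bortezomib members differed between the lines in both directions, in RPF at shares not far from those of all genes. In total RNA 32 members were lower and 20 higher in S51A, against 32.4% and 33.3% of all genes, and 31 of these 32 were also among the 50 lower in vehicle. With library totals alone 21 were lower and 28 higher, and the median turned from -0.01 to 0.04. In RPF 13 were lower and 9 higher, against 14.9% and 16.6%, and with library totals alone 19 were lower and 8 higher. Mrpl47 RPFs were 40.0, 39.1, 40.8 and 47.0 CPM in S51 bortezomib and 25.1, 23.8, 26 and 20.8 CPM in S51A bortezomib, a log2 fold change of -0.81 ± 0.18 (adjusted p = 0.00164). Mrpl4 and Mrpl2 followed, both at -0.73. Mrps21 was higher in RPF of S51A by 0.79 ± 0.16 (adjusted p = 0.000827), Mrpl14 by 0.63 ± 0.14 and Mrpl30 by 0.56 ± 0.17, a call lost on leaving out any of 3 bortezomib libraries. In total RNA Mrpl14 was higher by 0.61 ± 0.07, Mrpl34 by 0.60 ± 0.07 and Mrps21 by 0.53 ± 0.05. In TE Mrpl30 was higher by 0.56 ± 0.17 (adjusted p = 0.0450) and Mrpl3 lower, at -0.45 ± 0.13 (adjusted p = 0.0307), against 4.10% of all genes higher and 0.700% lower, and with library totals alone none was higher and 3 were lower. Leaving out any of 13 of the 31 libraries ended the call of Mrpl30, and any of 6 that of Mrpl3. No member passed in TE for the difference of the responses, against 0.0955% higher and 0.902% lower over all genes, where 4 members had an unadjusted p below 0.05 and DESeq2 called 1.

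**Figure D5:**
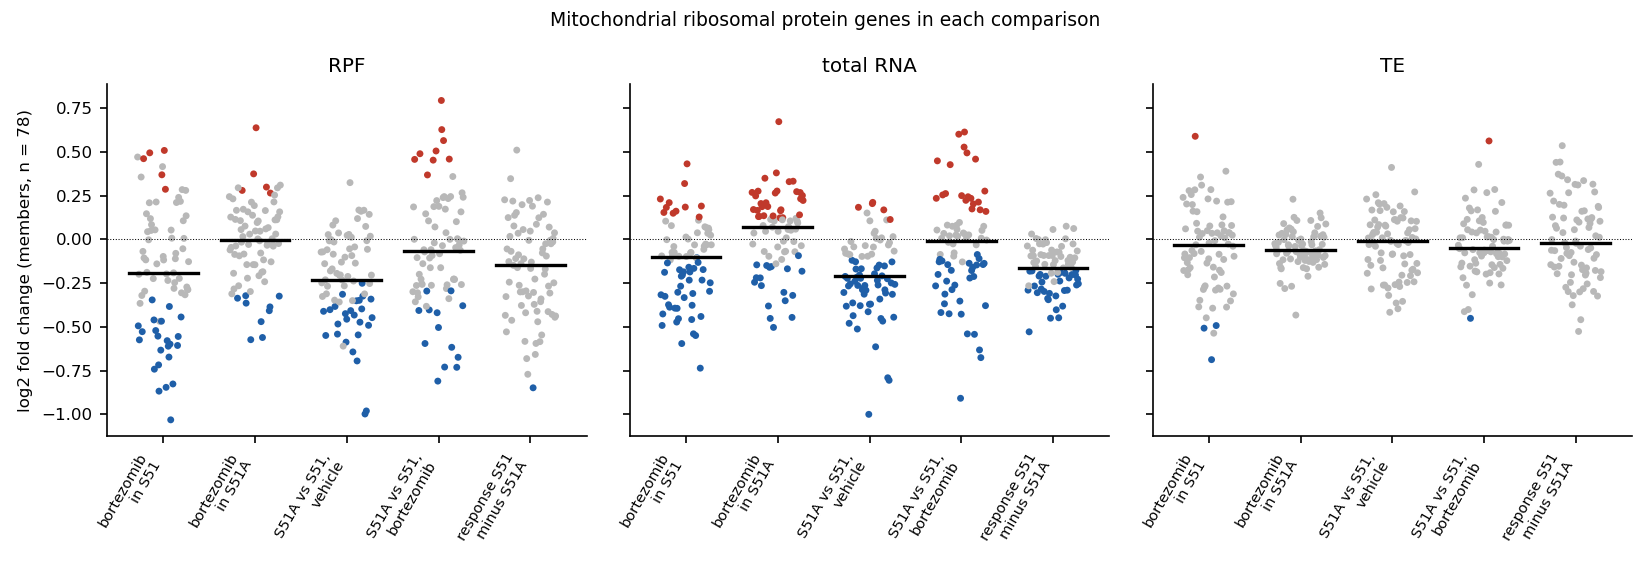
Log2 fold change of each of the 78 members in the 5 comparisons, in RPF, total RNA and TE; red points passed higher, blue points passed lower at an adjusted p of 0.05, grey points did not pass and bars are medians. The total RNA column for S51 minus S51A holds 34 blue points and no red one, and TE holds at most 4 coloured points in any column.

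Members with a known role beyond the core were read as a group of 8. Mrpl12, which besides its place in the ribosome binds the mitochondrial RNA polymerase, had 225, 282 and 199 CPM of RPF in S51 vehicle and 153, 155, 131 and 125 CPM in S51 bortezomib. All bortezomib libraries were below vehicle, with a log2 fold change of -0.74 ± 0.12 in RPF (adjusted p = 6.29e-05) and -0.39 ± 0.05 in total RNA (adjusted p = 5.67e-07). Mrps12, at the decoding centre of the small subunit, changed by -0.67 ± 0.22 in RPF of S51 (adjusted p = 0.0227) and by -0.24 without S51 vehicle replicate 2 (adjusted p = 0.229), and the call was also lost without S51 bortezomib replicate 1 (-0.61) or 3 (-0.65). Mrpl58, a peptidyl-tRNA hydrolase that releases stalled chains, changed by 0.01 ± 0.15 in RPF and -0.03 ± 0.05 in total RNA of S51, with neither past the test. Of the 3 paralogs Mrps18a, Mrps18b and Mrps18c, Mrps18b fell in S51 in RPF (-0.46 ± 0.12, adjusted p = 0.00663) and in total RNA (-0.47 ± 0.04, adjusted p = 6.17e-10). Over the leave-outs of 1 RPF library its RPF change ranged from -0.63 to -0.24 and always passed. Mrps18a stood at -0.19 ± 0.14 in RPF and Mrps18c at 0.28 ± 0.18, neither past the test, and between the vehicle lines Mrps18a was lower in RPF of S51A at -0.69 ± 0.13 (adjusted p = 0.000545). In S51, Mrps30 changed by -0.10 ± 0.12 in RPF and 0.01 ± 0.04 in total RNA and Mrps36 by -0.23 ± 0.15 and -0.08 ± 0.06, none past the test.

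Levels of the members in S51 vehicle were compared per kilobase of the shortest annotated coding sequence, taken whole for total RNA and less the 60 nucleotides of codons left out of the counting for RPF. In RPF they ranged from 36.0 to 1145 CPM per kilobase, with a median of 139, and in total RNA from 9.04 to 691, with a median of 88.8. Mrps33 stood first in both, at 1145 ± 134 (SD, n = 3) and 691 ± 30.2 (n = 4), over a shortest coding sequence of 105 nucleotides before those 60 were taken off for RPF, so that its RPF level rests on a very short length. By its longest it stood at 197 in RPF and 226 in total RNA. Mrps18b (614 ± 160) and Mrpl12 (431 ± 77.6) followed in RPF, within each other's spread, and Mrpl42 (650 ± 42.6) and Mrpl51 (385 ± 10.3) in total RNA. Mrps31 (36.0 ± 7.70), Mrps27 (39.6 ± 4.71) and Mrpl47 (43.5 ± 15.7) were lowest in RPF and did not differ beyond their spread. Mrps34 (9.04 ± 1.36) was lowest in total RNA, below Mrps27 (24.3 ± 1.02) and Mrps31 (26.5 ± 0.65). The order at the top depended on the length used. By the longest coding sequence Mrpl12 (431) was first in RPF, with Mrps18b at 261, and Mrpl51 (385) and Mrpl42 (354) were first in total RNA. Per kilobase of whole transcript Mrpl42 (300.4) was first in total RNA, with Mrpl51 at 98.4 and Mrps33 at 77.3. Mrps34 was lowest in total RNA by each of the 3 lengths. The ratio of the RPF to the total RNA level, each over its own length, ran from 0.634 in Mrpl18 to 20.1 in Mrps34 with a median of 1.51. The next highest was 5.86 in Mrpl43, and the ratio of Mrps34 rests on the lowest total RNA of any member. The sources used here do not make clear which part of the transcript was counted for total RNA, so ratios of different members may not be comparable. Exons of 12 members overlap those of another gene, among them Mrps25, Mrpl24 and Mrpl43, and such overlap can move counts between genes.

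Other genes of mitochondrial translation were read in fixed lists. Of 25 factors of mitoribosome assembly and ribosomal RNA modification, 18 fell and 1 rose in total RNA of S51, with a median of -0.28, and 12 fell and 1 rose in S51A, against 30.2% of all genes lower in S51 and 28.9% in S51A. Noa1, a GTPase of small subunit assembly, changed by -0.90 ± 0.06 in S51 and -0.70 ± 0.06 in S51A, and Ddx28, an RNA helicase of large subunit assembly, by -0.82 ± 0.06 and -0.84 ± 0.07. In RPF 4 of 24 fell and 1 rose in S51, a share lower close to the 16.0% of all genes, with Noa1 at -0.93 ± 0.18 and Ddx28 at -0.63 ± 0.16, and none passed in TE. Of 13 translation factors, 6 fell and 2 rose in total RNA of S51. Gfm1, the mitochondrial elongation factor that moves the ribosome along, rose by 0.33 ± 0.04 in total RNA and by 0.54 ± 0.11 in RPF, while Mtfmt, which formylates the initiator tRNA, changed by -0.42 ± 0.07 and -0.78 ± 0.19. Of 9 genes of mitochondrial transcription and mRNA handling 4 fell and 1 rose in total RNA of S51, among them Tfam, the DNA packaging factor, at -0.24 ± 0.04, and Lrpprc, which stabilises mitochondrial mRNAs, which rose by 0.42 ± 0.04. Of 5 further mitoribosome proteins without the Mrp symbol, Gadd45gip1 changed by -0.58 ± 0.17 in RPF of S51 and Dap3 rose by 0.19 ± 0.04 in total RNA. Messenger RNAs encoded in mitochondrial DNA were not analysed here.

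Promoters of the members were searched for 4 short letter strings on both strands, in 300 bases around each RefSeq start, 250 before and 50 after. CCGGAAG, the core bound by ETS factors, occurred in 26 of 75 promoters of members (34.7%), in 27 of 76 of cytosolic ribosomal proteins (35.5%) and in 8.86% of all 32851 promoters. GCGCATGC, the palindrome of NRF1, occurred in 8 (10.7%), 3 (3.95%) and 2.71%. AAGATGG, read by YY1, occurred in 13 (17.3%), 12 (15.8%) and 6.34%, and CACGTG, the palindromic E-box, in 7 (9.33%), 8 (10.5%) and 7.15%. None of the 4 strings contains another. The 150 bases before the start are given for 3 members that the comparisons above name and that hold a string there, with the string in capitals.
Mrpl34 (chr8:71464776-71464925, plus strand, ETS): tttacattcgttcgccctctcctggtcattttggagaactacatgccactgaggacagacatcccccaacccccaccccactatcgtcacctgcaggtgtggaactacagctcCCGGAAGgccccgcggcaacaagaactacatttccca
Mrpl17 (chr7:105811088-105811237, minus strand, NRF1): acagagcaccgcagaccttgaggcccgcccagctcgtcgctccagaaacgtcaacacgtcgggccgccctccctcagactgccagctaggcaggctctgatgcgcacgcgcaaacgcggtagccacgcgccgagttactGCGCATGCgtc
Mrps26 (chr2:130563607-130563756, plus strand, ETS on the other strand): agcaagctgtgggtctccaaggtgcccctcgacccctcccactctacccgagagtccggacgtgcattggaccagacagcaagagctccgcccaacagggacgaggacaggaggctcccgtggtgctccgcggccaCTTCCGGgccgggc
The members with and without the ETS string were not tested against each other. In total RNA of S51 the median was -0.17 over the 26 members with it and -0.07 over the 43 without, and the median difference between the lines was -0.17 and -0.18.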

How the data were processed

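Ribosome-protected fragments were sequenced in 15 libraries and total RNA in 16. Both deposited tables hold raw counts per gene made by the authors, who aligned reads to mm10 with Bowtie2. For RPF the study counted coding sequence without the first 15 and last 5 codons. Columns were assigned to groups after the series note on exchanged titles. Of the identifiers, 20687 of 20704 (RPF) and 24569 of 24593 (total RNA) were matched to a symbol.

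Counts were tested with edgeR 4.0.16 (R 4.3.3, limma 3.58.1): TMM scaling, filterByExpr (minimum count 10, minimum total 15), quasi-likelihood tests over all genes of an assay and Benjamini-Hochberg adjustment at 0.05. TE was the interaction of assay and group in a model of all 31 libraries, with a trended dispersion per assay. The steps were tested on simulated data. Alternatives were RLE size factors, library totals alone, no filter, DESeq2 1.42.0, a replicate block, and leaving out each library. CPM are on the TMM scale.

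Members named were the 3 with the largest change in each direction past the threshold in each comparison and assay, those past it in the RPF or TE difference of responses, the 3 highest and lowest per coding kilobase, and 8 with known roles. The members and lists were chosen with earlier results of these data known.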

Additional observations from a re-analysis of the deposited data

Results flagged for a closer look

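The 31 members named by their calls or roles were read in each group of 4 libraries. RPF of S51 vehicle, with 3 libraries, was left out. Of these 217 sets of 4 libraries, 9 held 1 library far from the other 3 by Dixon's criterion, which chance gives in about 1 in 20. In RPF these were Mrpl2 in S51A bortezomib replicate 3, at 43.6 CPM, Mrps18b in S51A vehicle replicate 1, at 130 CPM (129.64 unrounded), and Mrps30 in S51A bortezomib replicate 4, at 68.0 CPM. In total RNA they were Mrpl3 in S51A vehicle replicate 4, at 48.4 CPM, Mrpl18 in S51 bortezomib replicate 1, at 55.8 CPM, Mrpl58 in S51 vehicle replicate 2, at 46.2 CPM, and Mrps28 in S51 vehicle replicate 4, at 19.3 CPM. Mrpl41 had a distant library in total RNA of both S51A groups, replicate 1 of bortezomib at 23.1 CPM and replicate 3 of vehicle at 34.7 CPM.

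The responses to bortezomib differed between S51 and S51A by the interaction test in 1 member in RPF, Mrps21, at -0.85 (log2, S51 minus S51A). In total RNA they differed in 34 members, among them Mrpl18 at -0.53, Mrpl34 at -0.45 and Mrps12 at -0.45.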

How the results depend on the processing

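Counts of members past the threshold that moved by more than 1.5 times were as follows. In RPF of S51A, 14 became 7 without the filter. For the RPF difference of responses, 1 became 3 with DESeq2, 2 with RLE size factors and 0 with library totals alone. In TE of S51, 4 became 10 with DESeq2, 9 with library totals alone and 9 with 1 dispersion over both assays, an alternative chosen after seeing the data. In TE between the lines under bortezomib, 2 became 6 with DESeq2, 1 without the filter and 4 with 1 dispersion. DESeq2 gave 1 in TE of S51A and 1 for the TE difference. The cause was not tested.

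Same-numbered libraries correlated by 0.0021 to 0.191 in total RNA and -0.158 to 0.261 in RPF, and between the assays by -0.056 to 0.346, with a median of 0.113 against -0.032 for different numbers. Within total RNA the median was 0.092 for the same number and -0.034 for different numbers, and within RPF 0.0325 and -0.022. Not every pair passed 0.1, so the main tests did not pair libraries by number, which does not show that they are unpaired. Total RNA and RPFs were prepared from the same lysates, which the TE model treats as independent. A replicate block gave 0 for the RPF difference, without the call of Mrps21, and 2 in TE of S51, where Mrps24 and Mrps26 did not pass. In TE between the lines under bortezomib it gave 1, a member other than Mrpl30 and Mrpl3, and 0 of those 2 calls were kept.

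Leaving out 1 library at a time gave, in RPF, 20 to 32 members in S51, 5 to 20 in S51A, 19 to 33 between the vehicle lines, 17 to 30 under bortezomib and 0 to 5 for the difference. In total RNA it gave 44 to 49, 44 to 49, 53 to 57, 49 to 52 and 25 to 36, and in TE 1 to 12, 0 to 1, 0 to 3, 0 to 5 and 0 to 0. In RPF of S51A, leaving out any of the 8 S51A libraries gave 5 to 8 members and leaving out S51 vehicle replicate 2 gave 20. For the RPF difference the highest count came without S51 vehicle replicate 3. The lowest count in TE of S51 came without RPF S51 bortezomib replicate 3 and the highest without RPF S51 vehicle replicate 3.

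Signs were compared only for the named members in the comparisons that name them. There they turned only in members that did not pass on the TMM scale. Mrpl58 in RPF of S51 ranged from -0.051 to 0.078 over the leave-outs and was below 0 without S51 bortezomib replicate 1 or 2 or S51 vehicle replicate 1 or 2. Mrps30 ranged from -0.199 to 0.054 in RPF, above 0 without S51 vehicle replicate 2, and from -0.0083 to 0.0542 in total RNA, where it stood at -0.14 and passed with library totals alone (adjusted p = 0.00718 by edgeR). Mrps18c in total RNA went to -0.089 with library totals alone.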
